A study of Mus musculus with 4 samples.

Results

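Calca, Calcb, Pth, Gcm2, Casr, Chga, Chgb and Scg2 are 8 of the 32285 genes counted in single cells of the mouse thyroid after birth, and they were taken by symbol from the deposited gene list. The study dissociated thyroids of C57 mice (C57BL/6 in its methods) at postnatal day 5, 10, 20 and 30 and followed how the gland matures over the first month. All animals were wild type and untreated, and the thyroids of 10 mice were pooled into 1 droplet library per age, so each age has 1 library and no test between ages was made. Values of the 4 libraries are always given in the order of the labelled age.

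Calca encodes calcitonin, the hormone of thyroid C cells that lowers blood calcium, and, by alternative splicing, the neuropeptide CGRP. Counts per gene cannot separate these 2 products. Calcb encodes a second CGRP. Pth encodes parathyroid hormone, which raises blood calcium, Gcm2 is the transcription factor on which parathyroid development depends, and Casr is the calcium-sensing receptor through which calcium restrains parathyroid hormone release. Chga, Chgb and Scg2 encode granins, acidic proteins that are packed with hormones in dense-core secretory granules. The parathyroid glands lie on or in the thyroid, so a dissected mouse thyroid can carry both endocrine cell types.

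Calca, Calcb and Pth lie on chromosome 7 of the GRCm38 build. Calca spans chr7:114631478-114636357 on the minus strand and Calcb chr7:114718643-114723365 on the plus strand, 82285 bases away. Pth spans chr7:113385580-113388570 on the minus strand. Gcm2 lies at chr13:41101427-41111035, Casr at chr16:36493696-36562141 and Scg2 at chr1:79434669-79440120, all 3 on the minus strand. Chga lies at chr12:102554969-102565028 and Chgb at chr2:132781278-132795079, both on the plus strand. Calca and Calcb are near copies in part of their exons, with a shared stretch of up to 61 bases. A read within that stretch alone could not be told apart. How the counting treated such reads was not examined, and low Calcb counts are uncertain.

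The cAMP response element, TGACGTCA, is the motif through which cAMP-regulated factors are known to act at many neuroendocrine genes. It reads the same on both strands, and it was searched in the 250 bases before each RefSeq start on GRCm38. An exact copy stood in 508 of 32851 promoters (1.55%), and a copy with at most 1 changed base in 10.6%. Of the 7 members with a RefSeq promoter, Chgb and Scg2 held an exact copy, and Calca, Pth and Chga a copy with 1 changed base. These 5 genes are the ones with high levels in the hormone-rich cells described below, and their sites are shown for that reason. The motif or its nearest match is in capitals, with changes counted from 1 at the first capital and the motif's base named first.
Chgb, chr2:132781559-132781588, plus strand, exact: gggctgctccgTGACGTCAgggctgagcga
Scg2, chr1:79440076-79440105, minus strand, exact: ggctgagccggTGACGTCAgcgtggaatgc
Chga, chr12:102554886-102554915, plus strand, C7A: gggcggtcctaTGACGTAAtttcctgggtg
Pth, chr7:113388601-113388630, minus strand, G5A: agaaccaggagTGACATCAtccttaacaat
Calca, chr7:114636469-114636498, minus strand, G5C: acttccaccaaTGACCTCAatttaaattca
Calca, chr7:114636551-114636580, minus strand, C4T: gaaatttatctTGATGTCAaaaggccctcc
The motif began 72 bases before the start in Chgb, 68 in Scg2, 44 in Chga and 46 in Pth, and 130 and 212 in Calca. The closest matches in Gcm2 and Casr differed at 3 bases. The Chgb and Scg2 windows overlap annotated exons of those genes, and the Calca, Pth and Chga windows do not. A match describes the letters and does not show that a factor binds there.

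The 4 libraries held 54921806 to 89039113 UMIs (unique molecular identifiers, each marking 1 captured transcript). The study's list named 37503 barcodes as cells, and 23116 were kept after limits on UMIs (200 to 10000) and on mitochondrial and hemoglobin shares and removal of the 6% highest doublet scores of each library, 11211, 3930, 5076 and 2899 per library. Without the upper limit 29582 cells were kept. The ages rest on the labels alone: H19, a fetal transcript that falls after birth, was at 64.2, 526, 71.7 and 1933 CPM (UMIs per 1000000) in fibroblast-like cells, an order that goes against the labelled ages. The libraries had 15297, 7843, 7808 and 6555 listed barcodes, the last being fewer than the cells stated for that age in the paper. The cell barcodes of the last 3 libraries recurred at 97.4% to 98.8% in each other's matrices, with a median of 8 to 12 UMIs there. Free RNA was read in each library from droplets of 10 to 100 UMIs, a window that also takes in some of these recurring barcodes. TFC-like cells (thyroid follicular cells, the makers of thyroid hormone) served as the epithelial reference, with all 9 TFC markers detected in each library.

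Cells rich in 1 hormone were gated directly. A Calca-high cell had at least 10 Calca UMIs and at least 10 times the share of Calca in the droplets of its library, and a Pth-high cell was defined in the same way with Pth. A cell past both gates was counted in neither group. Among the listed barcodes 474 were Calca-high (190, 137, 56 and 91) and 170 were Pth-high (59, 36, 40 and 35). The Calca gate stood at 2.37%, 4.27%, 2.76% and 3.23% of a cell's UMIs. The lowest cells inside had 2.41%, 4.53%, 2.84% and 3.24%, and the highest outside 2.17%, 4.10%, 2.74% and 3.00%. For Pth the lowest inside had 2.13%, 1.49%, 4.03% and 1.73%, and the highest outside 2.04%, 1.40%, 3.09% and 1.51%.

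The upper UMI limit removed many hormone-rich cells. The median was 8832, 11197, 3632.5 and 2454 UMIs in Calca-high and 9248, 2962, 6189.5 and 6374 in Pth-high cells, against 3296, 5141, 2916 and 5755 in all listed cells, and 210 Calca-high and 68 Pth-high cells exceeded 10000 UMIs. The hormone-rich cells were thus deeper than their library except for Calca-high cells of the library labelled day 30 and Pth-high cells of that labelled day 10. After all filters 220 Calca-high cells (94, 49, 27 and 50) and 54 Pth-high cells (29, 1, 17 and 7) were left. The single Pth-high cell of the library labelled day 10 had 520 UMIs. Without the upper limit there were 412 Calca-high (178, 111, 46 and 77) and 138 Pth-high cells (54, 20, 34 and 30). Values are given for the filtered cells and, where the limit moved them or left a gene untested, also without the limit, which is called full depth.

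The gates matched other markers of both cell types that no gate used. Of the 474 Calca-high cells, 445 had at least 3 of 12 C cell genes, and the summed level of those genes in the filtered cells was 9886 to 13237 CPM, against 247 to 301 CPM in droplets. Of the 170 Pth-high cells, 92 had at least 3 of 10 parathyroid genes. Their summed level in the filtered cells was 1823, 0, 1841 and 2390 CPM, against 45.5 to 102 CPM in droplets. Pvalb, Cyp27b1 and Sox3 were at 0 in the filtered Pth-high cells of every library. Most of the 12 C cell genes, such as Resp18, Scg3 and Pcsk2, also stand in the list of granule and peptide processing genes below. The rest stand in the C cell identity list, and all 10 parathyroid genes in the parathyroid identity list. The results of those lists are thus not independent of this match. TFC markers summed to 8290, 989, 1205 and 725 CPM in Calca-high and 190 to 1923 CPM in Pth-high cells, below the 8881 to 17664 CPM of droplets. The Calca-high cells of the library labelled day 5 thus carried the most, with all 9 TFC markers detected. In the clustering described below 7 Calca-high cells lay in TFC-like clusters. Some other marker lists stood above the droplets in a library, such as fibroblast markers in Calca-high (690 against 584 CPM) and Pth-high cells (912 CPM) and B cell markers in Pth-high cells (498 against 71.9 CPM) of the library labelled day 5, and endothelial markers in Pth-high cells of that labelled day 20 (1067 against 592 CPM). Their part in the results was not tested. In a clustering that left out all 8 members, 193 of the 220 Calca-high and 34 of the 54 Pth-high cells shared 1 C cell-like cluster. At full depth, 390 of the 412 Calca-high cells fell in 2 C cell-like clusters and 128 of the 138 Pth-high cells in a parathyroid-like cluster of 129 cells. Clusters in the filtered data thus did not separate the hormone types, and the gates were used for all values below.

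Calca was the leading transcript of its own cells, at 20.7% to 33.9% of their UMIs. Calca-high cells held 206741, 338502, 294957 and 288681 CPM of Calca, or 247706 CPM over all 4 libraries (exact 95% Poisson interval 246489 to 248928, counting error only). These values are set by the gate and were not tested. In droplets Calca stood at 2370, 4274, 2763 and 3226 CPM, and in TFC-like cells at 163, 99.1, 54.5 and 301 CPM. The high value of the library labelled day 30 rested on 1 cell with 130 of its 166 UMIs. Without that cell the level there was 66.5 CPM. No other named class outside the gate exceeded the droplets, apart from 7 C cell-like cells below the gate.

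Pth was as dominant in its cells. Pth-high cells held 276232, 98077, 307707 and 156657 CPM of Pth, the second value from 1 cell. At full depth the 4 levels were 287327, 254721, 278487 and 176150 CPM, so the library labelled day 10 came to stand with the others and that labelled day 30 was the lowest. Droplets held 2057, 1432, 3838 and 1698 CPM. The 12 other named classes ranged from 0 to 154 CPM with a median of 44.2, and their ranges overlapped. Pth in Calca-high cells (0 to 100 CPM) and Calca in Pth-high cells (0 to 75.9 CPM) lay in that low range.

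Calcb was close to absent. It had 3 UMIs in Calca-high cells, all in the library labelled day 5, and 2 UMIs in 1 of 48 class and library pairs outside the gates. At full depth Calca-high cells held 10, 10, 1 and 5 Calcb UMIs, in 24 of 412 cells, against 955471 UMIs of Calca. Over the 4 libraries this was 5.21 CPM (3.41 to 7.64), at least 101-fold above TFC-like cells, where 0 UMIs were counted. The sequence shared with Calca stands beside this value, and its part was not tested.

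**Figure D1:**
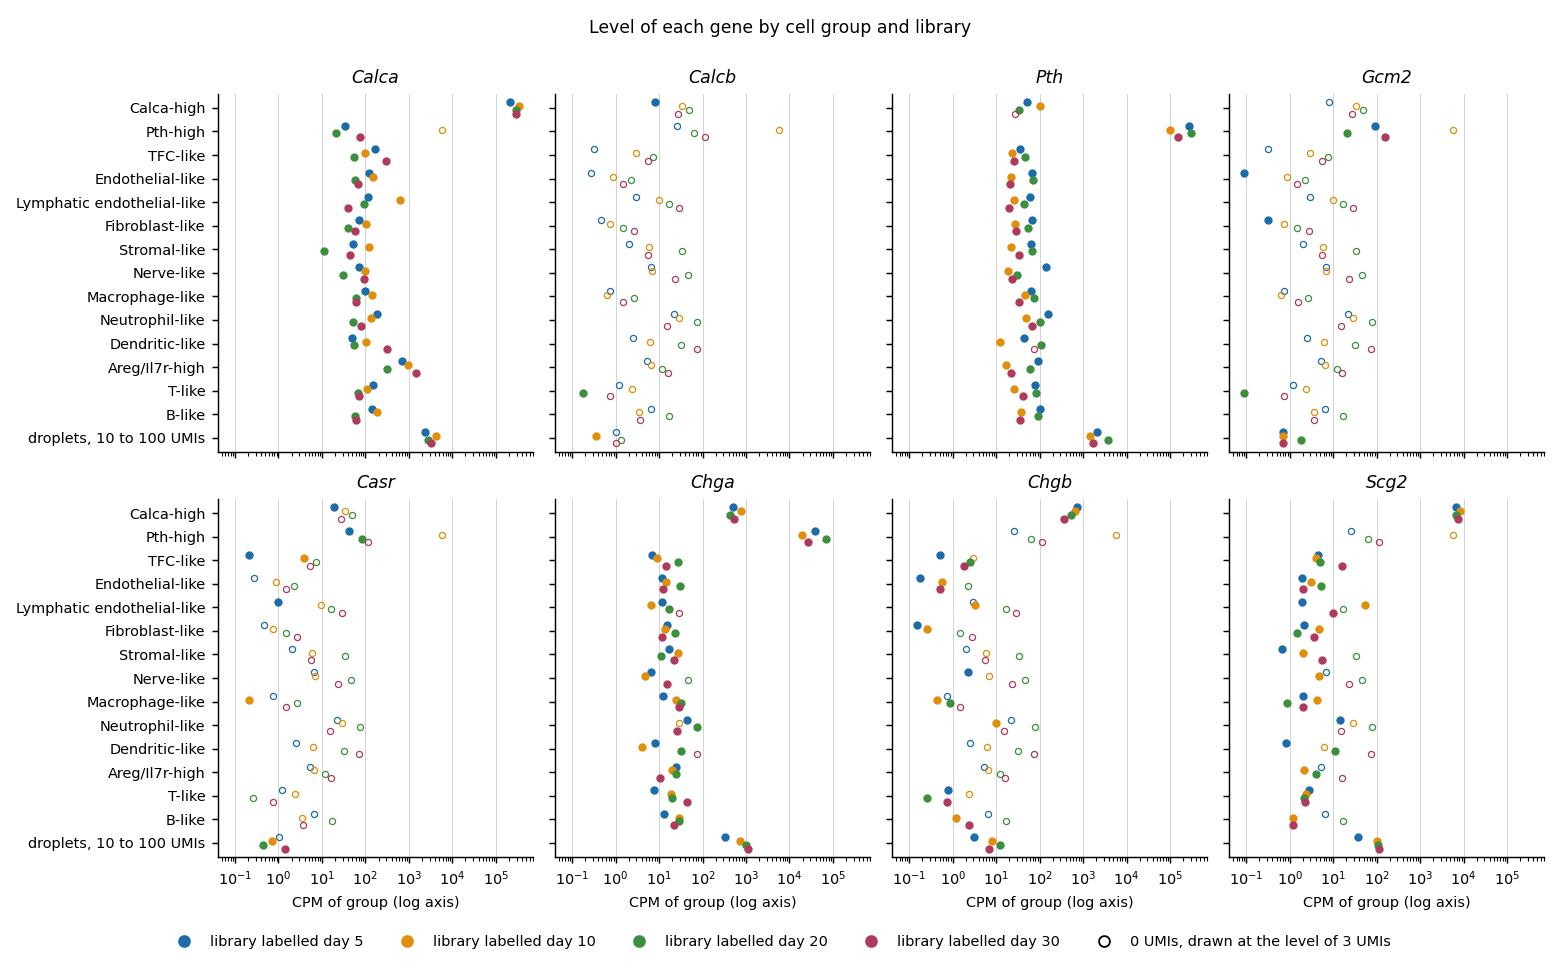
Level of each of the 8 genes (CPM, log axis) by cell group, with 1 point per library in its colour and open points for 0 UMIs drawn at the level of 3 UMIs. Calca and Scg2 stand highest in Calca-high cells, Pth and Chga in Pth-high cells, and Calca, Pth and Chga in droplets lie above the other classes drawn (the 7 C cell-like cells outside the gates are not drawn).

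Gcm2 was found in Pth-high cells and not in Calca-high cells. In the filtered Pth-high cells it stood at 92.9, 0, 20.9 and 152 CPM, from 16 UMIs in all. At full depth it was 77.6, 75.1, 92.3 and 115 CPM, from 185 UMIs, so all 4 libraries lay close together once deep cells were kept. No Gcm2 UMI was counted in the 412 Calca-high cells or in TFC-like cells, and droplets held 0.685 to 1.80 CPM.

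Casr, in contrast, was counted in both hormone-rich groups. At full depth Pth-high cells had 47.4, 83.1, 81.3 and 78.1 CPM of Casr, and Calca-high cells had 18.7, 9.35, 18.9 and 3.67 CPM. The groups did not overlap, and each Calca-high value exceeded that of TFC-like cells, which was 0.325 CPM over all libraries. In the filtered cells Casr rested on 9 and 7 UMIs. By cell, 62 of 138 Pth-high cells had a Gcm2 UMI, 58 had a Casr UMI and 42 had both, whereas 0 of 412 Calca-high cells had Gcm2, and 56 had Casr.

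Gcm2 and Casr were too sparse to be tested among filtered cells. At full depth, in a comparison by edgeR's quasi-likelihood test on UMIs summed per library, 28.4% of all 11647 genes tested between Pth-high and TFC-like cells passed an adjusted p of 0.05, 12.5% as higher and 16.0% as lower. Casr was higher in Pth-high cells by 7.99 on the log2 scale (SE 0.33, edgeR adjusted p = 3.0e-08, higher in 4 of 4 libraries). Gcm2 was at least 1757-fold higher there, against the level of 3 UMIs over the TFC-like group (edgeR adjusted p = 4.1e-07, 4 of 4). Of the 12379 genes tested between Calca-high and TFC-like cells 41.4% were called, 22.3% as higher and 19.2% as lower, and Casr was higher in Calca-high cells by 5.26 (SE 0.55, edgeR adjusted p = 5.3e-06, 4 of 4). Between Calca-high and Pth-high cells 27.2% of 7101 genes were called, 14.9% as higher and 12.3% as lower. There Casr was lower in Calca-high cells, at -2.64 (SE 0.34, edgeR adjusted p = 0.00015, 4 of 4), and Gcm2 was at least 150-fold lower (edgeR adjusted p = 2.1e-06, 4 of 4). Gcm2 had no UMI in TFC-like and Calca-high cells, and Casr was low in TFC-like cells. Both genes passed the filter on low counts through the hormone-rich group where they are high, so their directions are no support. Each of these Gcm2 and Casr calls held with any 1 library left out, an alternative chosen after seeing the data (edgeR adjusted p at most 0.0019). The Casr difference between the hormone groups was not called when every gene of at least 1 UMI was tested in filtered cells (-1.72, edgeR adjusted p = 0.64).

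The 3 granins differed between the hormone cells. Scg2 and Chgb were counted in Calca-high and not in Pth-high cells, whereas Chga was counted in both and was by far highest in Pth-high cells. In the filtered Calca-high cells Chga stood above Chgb in the libraries labelled day 10 and day 30 and below it in the others. Scg2 stood at 6728, 8404, 6638 and 7358 CPM in Calca-high cells and Chgb at 727, 656, 528 and 372 CPM. In Pth-high cells neither gene had a UMI in any library, among 54 filtered cells and also among the 138 cells and 2049812 UMIs at full depth. Counts of 0 at that depth allow up to 1.46 CPM. TFC-like cells had 4.58, 3.96, 4.96 and 16.3 CPM of Scg2 and 0.521, 0, 2.48 and 1.81 CPM of Chgb.

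Chga reached 38181, 19231, 67821 and 26786 CPM in Pth-high cells, where it was detected in every cell. In Calca-high cells it was 503, 767, 429 and 544 CPM and in TFC-like cells 6.98, 8.92, 27.3 and 14.5 CPM. The 3 groups did not overlap. Droplets held 333, 732, 1009 and 1124 CPM of Chga, so the Calca-high level stood above them in 1 library, within counting error of them in 1 and below them in 2. At full depth the Calca-high level was 331, 431, 410 and 401 CPM, above the droplets in no library. Compared at equal depth, 34.0% of 159 Calca-high cells thinned to 1000 UMIs had a Chga UMI (110 of 220 before thinning), against 0.607% of 1812 TFC-like cells (3.52% before). The median depth was 1041 to 3162 UMIs in Calca-high and 6648.5 to 7380 UMIs in TFC-like cells. Chgb was found in 45.9% and Scg2 in 92.5% of the thinned Calca-high cells, against 0% and 0.442% of the thinned TFC-like cells.

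**Figure D2:**
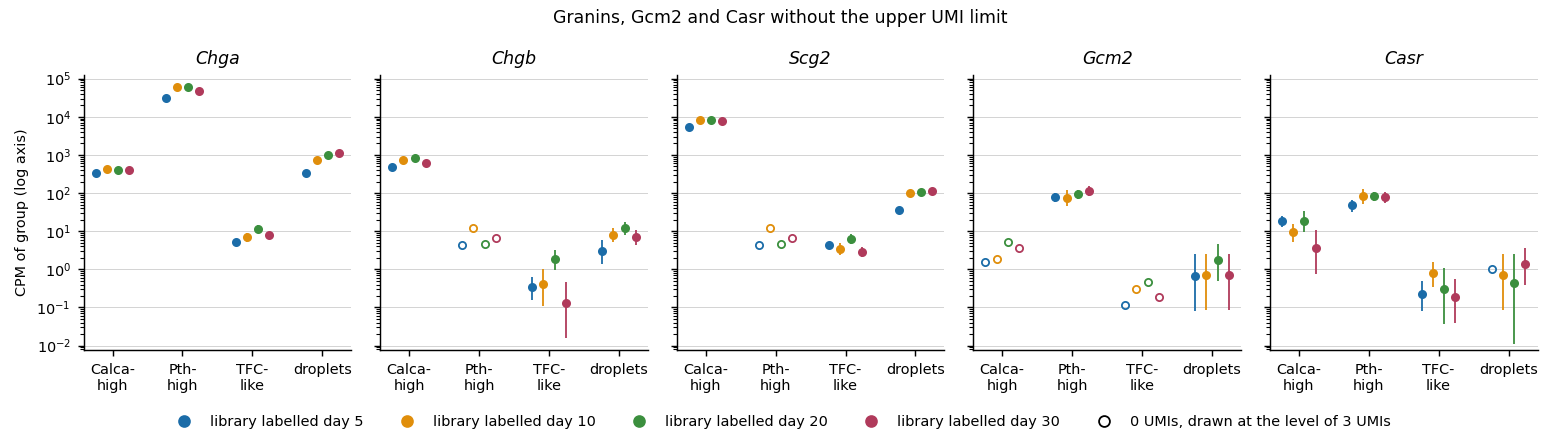
Levels of Chga, Chgb, Scg2, Gcm2 and Casr (CPM, log axis) at full depth (without the upper UMI limit) in 4 groups, with 1 point per library, exact 95% Poisson bars and open points for 0 UMIs drawn at the level of 3 UMIs. Chga in Pth-high cells lies between 30863 and 59444 CPM, Chgb and Scg2 are at 0 there in all 4 libraries, and Casr is counted in both hormone-rich groups.

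Tests on library sums went in the same direction. Between Calca-high and TFC-like cells 25.5% of 4941 genes were called, 11.7% as higher and 13.8% as lower, and the 3 granins, the only members that passed the filter on low counts, were all higher in Calca-high cells. All 3 were low in TFC-like cells and passed that filter through the Calca-high group, so their common direction is no support. Scg2 was higher by 10.72 on the log2 scale (SE 0.39, edgeR adjusted p = 7.0e-23), Chgb by 10.30 (SE 0.48, edgeR adjusted p = 6.8e-20) and Chga by 6.15 (SE 0.36, edgeR adjusted p = 1.0e-16), each in 4 of 4 libraries. At full depth the 3 differences were 11.04, 10.53 and 5.96. Between Pth-high and TFC-like cells 16.0% of 3432 genes were called, 3.15% as higher and 12.8% as lower, and Chga, the only member tested, was higher by 11.39 (SE 1.15, edgeR adjusted p = 3.4e-20, 4 of 4). There Chga passed the filter on low counts through the Pth-high group. The Pth-high side of the library labelled day 10 was 1 cell of 520 UMIs, 10 of them of Chga. At full depth the Chga difference was 13.02, and Scg2, at 0 in Pth-high cells, was at least 2.71-fold lower than in TFC-like cells (edgeR adjusted p = 0.038, 4 of 4). That Scg2 call was lost when any 1 library was left out (edgeR adjusted p 0.057 to 0.12).

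Set against each other directly, Calca-high and Pth-high cells differed in 19.0% of 768 genes, 110 (14.3%) higher and 36 (4.69%) lower in Calca-high cells. With DESeq2's scaling and test the split was 83 higher and 8 lower. Chga was lower in Calca-high cells, at -5.71 on the log2 scale (SE 1.20, edgeR adjusted p = 2.2e-05, 4 of 4 libraries). Scg2 was at least 455-fold higher in Calca-high cells (edgeR adjusted p = 1.1e-24, 4 of 4) and Chgb at least 41.0-fold (edgeR adjusted p = 1.3e-19, 4 of 4). Both had no UMI in Pth-high cells and passed the filter on low counts through the Calca-high group, so their direction is no support. In the library labelled day 10 the Pth-high side was 1 cell of 520 UMIs, where a count of 0 says little about Chgb. At full depth Chga was at -7.16 (SE 0.14), and the bounds were 4834-fold for Scg2 and 433-fold for Chgb.

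Within single Calca-high cells the granins accompanied Calca unevenly. At full depth 395 of 412 cells had a UMI of Scg2, 304 of Chgb and 299 of Chga, and 264 had all 3. Only 15 cells had none. In the 159 cells thinned to 1000 UMIs, Calca and Scg2 counts had a Spearman correlation of 0.35, Scg2 and Chgb 0.39, and Calca and Chga 0.083. Cells of 1 library share its free RNA, and the Calca to Scg2 values within libraries were 0.47, 0.25, 0.068 and 0.12. In 42 thinned Pth-high cells Pth and Chga had a correlation of 0.60, with 0.40 and 0.35 within the libraries labelled day 5 and day 20. These are descriptions, since cells of a library are not replicates.

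The machinery that cuts and stores peptide hormones went with Calca. Among 28 genes of secretory granules and peptide processing, 17 were tested between Calca-high and TFC-like cells, where 11.7% of all genes were called higher. Of the 17 genes, 15 were higher and 2 did not pass the test. The median log2 difference was 7.55, against -0.09 over all genes tested. Scg3, a granin that binds Chga in granules, was higher by 11.33, Pcsk2, a prohormone convertase, by 11.06, Resp18 by 10.48 and Pcsk1n, the inhibitor of the convertase Pcsk1, by 10.47. Snap25, a membrane fusion protein, was at least 572-fold higher. All 5 had an edgeR adjusted p of 1.1e-14 or less and were higher in 4 of 4 libraries. Genes low in TFC-like cells, such as Snap25 with no UMI there, passed the filter on low counts through the Calca-high group. The count and the median are therefore no support for the list. The hormone gate chose these cells, so the list describes them.

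In Pth-high cells few genes of the list could be tested. Against TFC-like cells, where 12.8% of all genes were called lower, 5 of its genes were tested and 2 did not pass. Rab3d (-3.08), Pam (-2.39) and Cplx2 (-2.01) were lower, with edgeR adjusted p of 0.020, 0.00036 and 0.0049. Rab3d and Cplx2 act in granule release and Pam amidates peptide ends. The Rab3d call was lost when any 1 library was left out (edgeR adjusted p 0.057 to 0.10), the Cplx2 call without the library labelled day 5 (0.083) or day 20 (0.061), and the Pam call without that labelled day 20 (0.051). These 3 genes had 1, 7 and 6 UMIs in Pth-high cells and passed the filter on low counts through the TFC-like group, so their number is no support for the list. At full depth 7 were tested: Cpe, the carboxypeptidase that trims cut peptides, was higher by 6.12, and Cplx2, Pam, Rab3d and Scg5 were lower. There 12.5% of all genes were called higher and 16.0% lower. Directly compared, with 14.3% of all genes called higher in Calca-high than in Pth-high cells, all 10 tested genes of the list were higher. Most of them had 0 or 1 UMI in the filtered Pth-high cells and passed the filter on low counts through the Calca-high group, so their common direction is no support for the list. Pcsk2 was at least 139-fold, Pcsk1n 111-fold, Scg3 46.0-fold and Ddc, the decarboxylase that makes serotonin and dopamine, 15.1-fold higher, and Resp18 was higher by 9.03 on the log2 scale (edgeR adjusted p of 9.6e-13 or less). At full depth 19 of 21 were higher, where 14.9% of all genes were called higher. This count has the same limit, since genes near 0 in Pth-high cells passed the filter through the Calca-high group.

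Genes of C cell identity moved in the same way, with one exception. Of 12 genes 5 were tested against TFC-like cells, where 11.7% of all genes were called higher. In Calca-high cells 4 were higher, among them Sst (somatostatin), Gfra4 and Isl1 by 12.49, 7.12 and 1.83. Nkx2-1, a transcription factor that TFCs also need, was lower, at -1.07 (edgeR adjusted p = 0.0057), and lost its call without the library labelled day 30 (0.057). At full depth 8 of 9 genes tested were higher, where 22.3% of all genes were called higher. Nkx2-1 was lower by less there, at -0.36 (edgeR adjusted p = 0.015), a call that was lost without the library labelled day 10 (0.11). Sst varied most between libraries, from 390 to 6171 CPM. Like other genes low in TFC-like cells, it passed the filter on low counts through the Calca-high group. The counts of higher C cell identity genes are therefore no support for the list. In the filtered Pth-high cells Nkx2-1 was at 0 and at least 21.1-fold below TFC-like cells, whereas at full depth it was at 37.1 against 358 CPM, a log2 difference of -3.10 (edgeR adjusted p = 0.00044). Gfra4, a subunit of the Ret receptor complex, was not silent in Pth-high cells: it held 32 UMIs, at 166 CPM, against 7.18 CPM in TFC-like cells. It was 1.66 higher in Calca-high than in Pth-high cells (edgeR adjusted p = 0.00033), a call that was lost without the library labelled day 5 (0.12). Sst had no UMI in Pth-high cells and was at least 125-fold higher in Calca-high cells.

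Parathyroid identity genes were too few in the filtered cells for any test. At full depth 12 of 16 were tested between Pth-high and TFC-like cells, where 12.5% of all genes were called higher. Of the 12 genes, 11 were higher and 1 did not pass, with a median of 5.39 against -0.02 over all genes tested. Kl, the co-receptor of FGF23, was at 490 to 940 CPM against 0.405 to 1.74 CPM, or 9.29 higher on the log2 scale. Pax1, Tbx1 and Gata3, transcription factors of the pharyngeal pouches and the parathyroid, were higher by 8.96, 8.87 and 7.69 (edgeR adjusted p of 1.5e-05 or less for these and Kl). Against Pth-high cells, 9 of 11 tested were lower in Calca-high cells, where 12.3% of all genes were called lower. Kl was at -9.98, Gata3 at -7.52 and Vdr, the vitamin D receptor, at -5.74, and Pax1 was at least 82.7-fold lower (edgeR adjusted p of 1.2e-05 or less). In both comparisons genes low outside the Pth-high group, such as Kl and Pax1, passed the filter on low counts through that group. Both counts and the median are therefore no support for the list. Against TFC-like cells 8 genes of the list were tested in Calca-high cells, where 22.3% of all genes were called higher, and 3 did not pass. Tbx1 (5.82), Pax9 (3.47), Hoxa3 (1.48) and Six4 (1.35) were higher in Calca-high cells and Vdr (-1.15) was lower. The Vdr call was lost without the library labelled day 10 or day 30 (edgeR adjusted p up to 0.065), and Hoxa3, untested among filtered cells because of its low counts, stood at -0.53 when it was tested there (edgeR adjusted p = 0.93).

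**Figure D3:**
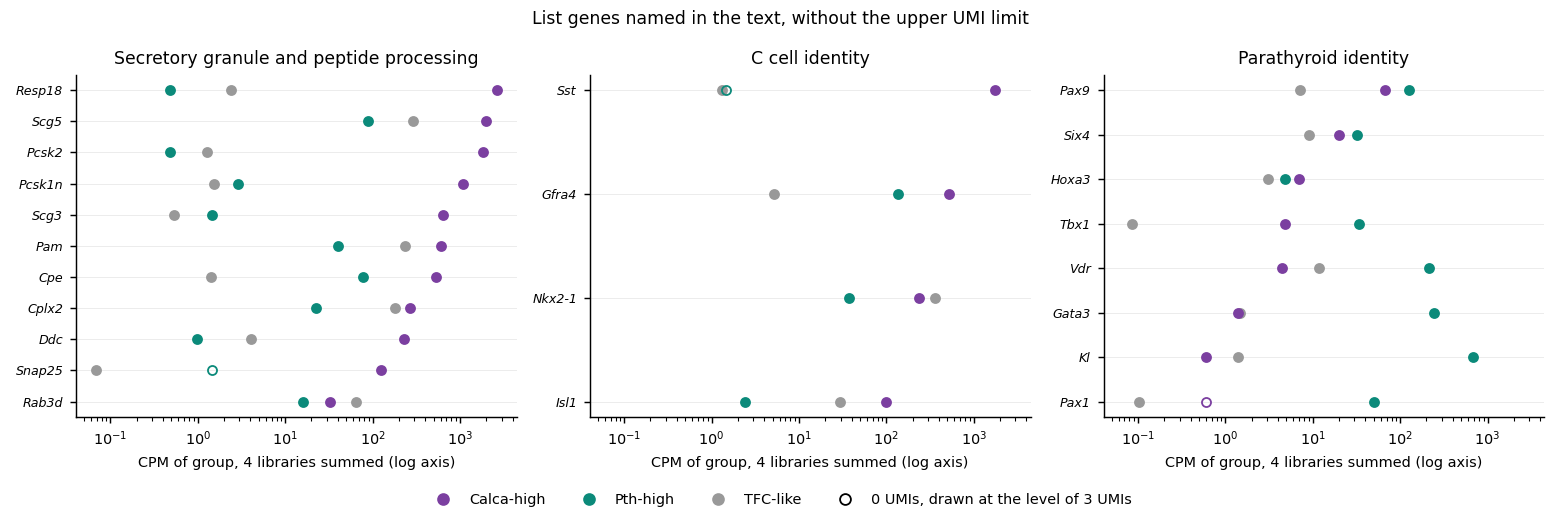
Level (CPM, log axis) of the genes of 3 lists that the text names, at full depth, summed over 4 libraries in Calca-high, Pth-high and TFC-like cells and ordered by the Calca-high level, with open points for 0 UMIs drawn at the level of 3 UMIs. Resp18, Scg5 and Pcsk2 lie furthest right among the granule genes, in Calca-high cells, and Kl among the parathyroid genes, in Pth-high cells.

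Few genes of calcium handling and of the peptides' receptors could be tested in filtered cells. In the filtered Calca-high cells Gna11, Atp2b1 and Gnaq were tested against TFC-like cells, with log2 differences of 0.37, 0.30 and 0.56 (edgeR adjusted p = 0.54, 0.58 and 0.44). In filtered Pth-high cells Gna11 was at 0.50 and Atp2b1 at -1.14 (edgeR adjusted p = 0.58 and 0.17, the last with an unadjusted edgeR p of 0.043). No receptor gene passed the filter on low counts. At full depth 7 of 9 calcium handling genes were higher and 1 was lower in Calca-high than in TFC-like cells, where 22.3% of all genes were called higher and 19.2% lower, with a median of 1.22 against 0.01 over all genes tested. Genes low in TFC-like cells could pass the filter on low counts through the Calca-high group. The count and the median are therefore no support for the list. The largest differences were in Atp2b2, a calcium pump of the plasma membrane (8.01), the calcium channel genes Cacna1h (3.98), Cacna1c (2.12) and Cacna1d (1.59), and Trpv6, an epithelial calcium channel, which was lower (-1.65; edgeR adjusted p of 0.0049 or less for the 5). In Pth-high cells Cacna1d was higher (1.67) and Trpv6 (-3.83) and Atp2b1 (-0.59) were lower than in TFC-like cells. Each of these 3 calls was lost when a library was left out, Cacna1d without that labelled day 20 (edgeR adjusted p = 0.075), Trpv6 without day 30 (0.055) and Atp2b1 without day 10, 20 or 30 (up to 0.12). Between the hormone groups Gnaq, which couples Casr to phospholipase C, and Atp2b1 were higher in Calca-high cells, by 1.16 and 0.92.

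Receptor parts for calcitonin family peptides were counted in both groups at low levels. At full depth, Ramp1, the partner that turns Calcrl into the CGRP receptor, was higher in Calca-high than in TFC-like cells by 3.31 (13.7 to 26.9 against 1.10 to 6.57 CPM, edgeR adjusted p = 5.5e-05), and Ramp2 by 1.59, the latter not without the library labelled day 5 (edgeR adjusted p = 0.071). In Pth-high cells Ramp2 was higher by 2.57, Ramp3 by 2.64, Calcrl by 2.50 and Ramp1 by 2.07 (edgeR adjusted p of 0.034 or less), though Ramp3 was higher in 2 of 4 libraries only. Ramp3 and Calcrl lost their calls without the library labelled day 5 or day 20 (edgeR adjusted p up to 0.16 and 0.12) and Ramp1 without that labelled day 5 or day 30 (up to 0.22). Adm2, a peptide of the same family, was at -2.41 in Calca-high cells and at least 7.31-fold lower in Pth-high than in TFC-like cells. Calcrl and the Ramp genes are rich in endothelial cells, and endothelial markers summed to 0 to 395 CPM in the filtered Calca-high and 0 to 1067 CPM in the filtered Pth-high cells. Their part in these values was not tested.

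Calca and Pth UMIs often met in 1 barcode, but only 2 cells were rich in both hormones. Of 37503 listed cells 11281 had a Calca UMI, 6235 a Pth UMI and 2237 (5.96%) both. Of these, 2090 were in neither gate, at a median of 9839.5 UMIs. Per library they held up to 810, 1543, 1317 and 1206 Calca UMIs and up to 77, 53, 369 and 84 Pth UMIs. The highest counts of the 2 hormones need not lie in the same cell. Only 2 of 646 gated cells passed both gates (0.310%, exact binomial interval 0.0375% to 1.11%), and both were from the library labelled day 10. One had 74670 UMIs with 6856 of Calca and 1115 of Pth, the other 24956 UMIs with 2626 and 2880. They carried 11 and 10 of the 12 C cell genes and 6 of the 10 parathyroid genes each, and their doublet scores stood at percentiles 98.0 and 92.4 of their library. Both exceeded the upper UMI limit, so neither was among the 274 gated cells kept after all filters, and the second was kept at full depth.

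Apart from these 2 cells the hormones were not high together in a gated cell. The gates in part set this, since a cell past both belongs to neither group. No Calca-high cell had more than 5 Pth UMIs and no Pth-high cell more than 18 Calca UMIs, and the median of the other hormone was 0 UMIs in both. Summed over the listed cells, Pth stood at 25.1 CPM in Calca-high and Calca at 47.0 CPM in Pth-high cells, below the droplets of every library. At least 3 parathyroid genes were found in 17 of 474 Calca-high cells (3.59%) and at least 3 C cell genes in 10 of 170 Pth-high cells (5.88%), and each of these 17 and 10 cells also held at least 3 genes of its own list. Tbx1 and Pax9 of the parathyroid list were themselves higher in Calca-high than in TFC-like cells, and Gfra4 of the C cell list was counted in Pth-high cells. Such cells are therefore not by this count alone cells of a mixed program. Lower gates of 5 UMIs and 5 times gave 2 cells of 717 in both, and higher gates of 30 gave 0 of 536, which allows a share of up to 0.686% by its exact interval.

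**Figure D4:**
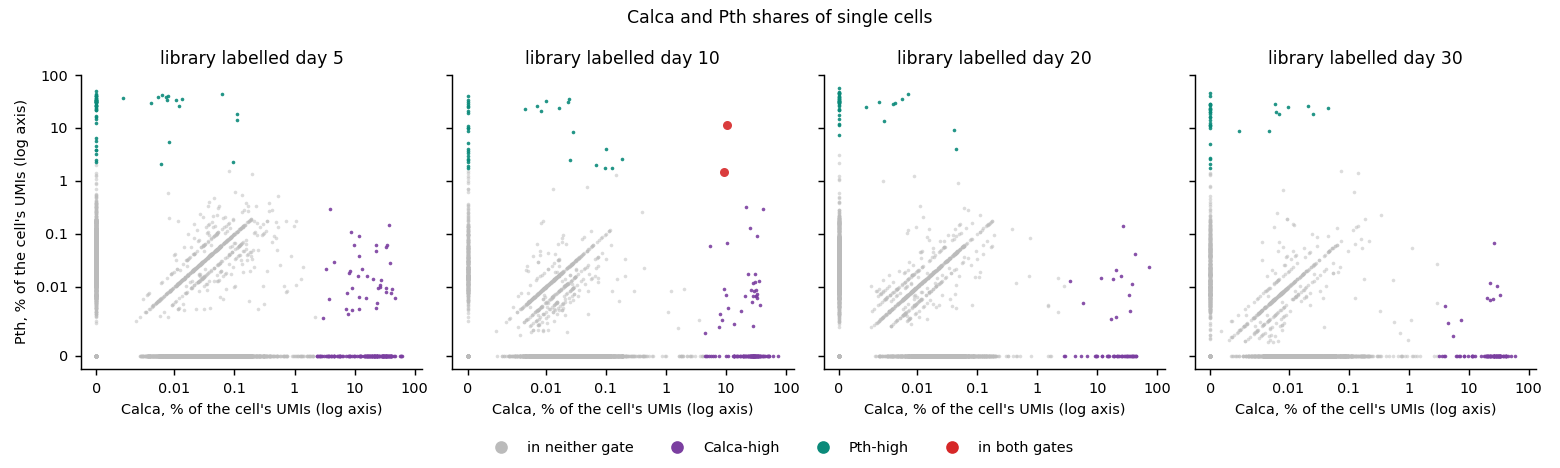
Share of Calca (horizontal) and Pth (vertical) among the UMIs of each listed cell, in percent on log axes with 0 included, in 1 panel per library. Calca-high and Pth-high cells lie along opposite edges, the large points are the 2 cells in both gates, and the diagonal streaks are cells with 1 or a few UMIs of each gene.

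Free RNA did not carry the hormones in the proportions of the cells in every library. Per Chga UMI, Pth-high cells held 7.23, 5.10, 4.54 and 5.85 Pth UMIs, the second value from 51 and 10 UMIs of 1 cell. At full depth they held 9.31, 4.32, 4.68 and 3.67, and droplets 6.17, 1.96, 3.80 and 1.51. Droplets thus held less Pth per Chga than the Pth-high cells in 4 of 4 libraries. Per Scg2 UMI, Calca-high cells held 30.7, 40.3, 44.4 and 39.2 Calca UMIs and droplets 64.7, 42.4, 26.3 and 28.3, the values of the library labelled day 10 being close, those of the droplets higher in that labelled day 5 and lower in the others. At full depth the cells held 32.9, 25.4, 24.0 and 23.4, close to the droplets in the library labelled day 20 and below them in the others. The barcodes under 10 UMIs held 11932, 19183, 5840 and 7618 UMIs of Calca and 276, 371, 114 and 172 of Scg2. Their Calca per Scg2 was above that of the cells in each library, filtered or at full depth.

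Outside the gates, and apart from the 7 C cell-like cells below the Calca gate (3919 to 27359 CPM in 3 libraries), Calca was highest in 1 cluster led by Areg, Il7r and Il1rl1, called Areg/Il7r-high here, in 4 of 4 libraries. It was found by a marker list of the study's mast cell genes Il7r, Gata3 and Rora with Il1rl1 and Areg added, but these genes are also known in innate lymphoid and T cells, and no mast cell protease gene was among its leading genes in the filtered data, so it is given no cell type name. At full depth the corresponding cluster had the mast cell protease genes Cma1, Cpa3 and Tpsb2 among its leading genes, beside Areg, Il7r and Il1rl1. In the filtered data the Areg/Il7r-high cluster held 688, 950, 308 and 1421 CPM of Calca, from 386, 439, 77 and 263 UMIs in 239, 108, 57 and 33 cells. The median of the other 11 classes was 113, 121, 54.5 and 66.4 CPM. Without its single richest cell the class had 618, 755, 249 and 1028 CPM, and 27, 25, 7 and 9 of its cells had at least 5 Calca UMIs. A Calca UMI was found in 47.7%, 71.3%, 33.3% and 57.6% of its cells at median depths of 2287 to 5405 UMIs, against 26.4%, 44.2%, 31.7% and 30.0% of the deeper TFC-like cells. Thinned to 1000 UMIs, 34.5%, 35.2%, 22.8% and 40.6% of its cells had a Calca UMI (8 of 437 cells left out), against 7.42%, 12.5%, 7.50% and 5.26% of macrophage-like cells (193 of 2608 left out). Over all libraries the thinned share was 7.45% in TFC-like, 8.33% in T cell-like and 10.3% in endothelial-like cells. All 4 levels lay below those of the droplets. Scg2, which accompanied Calca in Calca-high cells, had 0, 1, 1 and 0 UMIs in the class. The part of free RNA in these Calca levels was not tested. The class was singled out after its values were seen, so no test is given.

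**Figure D5:**
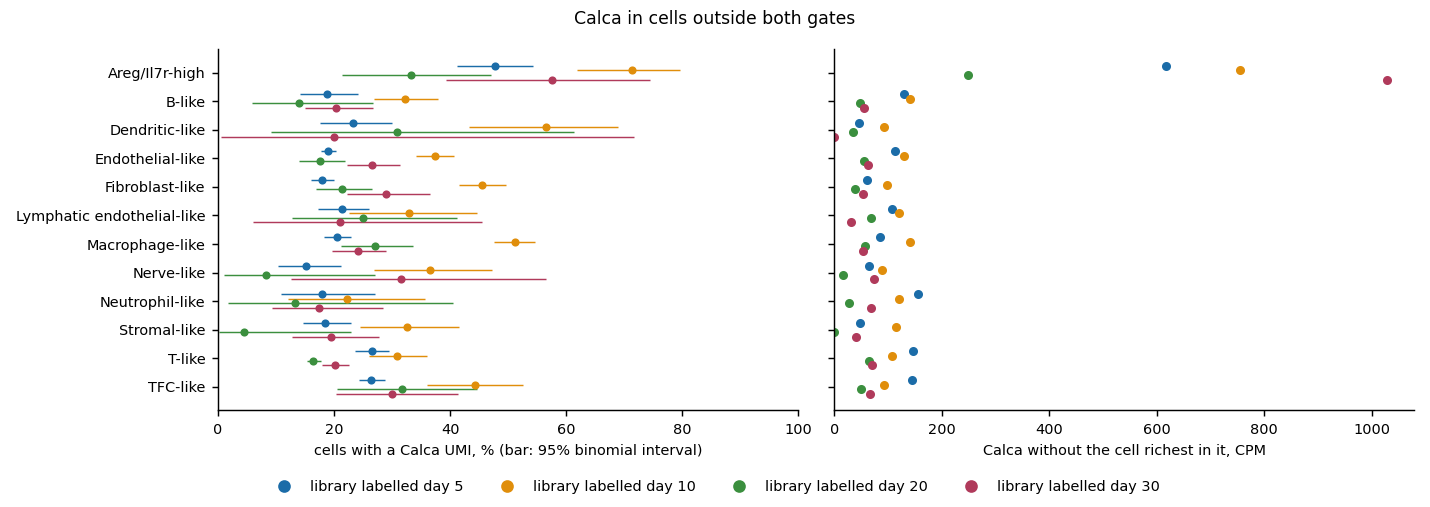
Calca in cells outside both gates, as the share of cells with a UMI (left, percent with exact 95% binomial bars) and as the level without the cell richest in it (right, CPM), with 1 point per library and class. Areg/Il7r-high cells lie at 249 to 1028 CPM, above the other classes drawn of the same library (the 7 C cell-like cells are not drawn).

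Over 56 pairs of class and library, spanning 15 cell groups, the genes most like Calca in log2(CPM + 1) were Pnoc (Pearson r = 0.93), Lhfpl5 (0.92) and Fam183b (0.91). Those most like Pth were Rhcg (0.89), Kl (0.88) and Spink8 (0.87). For Chgb they were Lhfpl5, A230051N06Rik and Rab3c (each 0.96), for Scg2 Lhfpl5 (0.94) and A230051N06Rik (0.93), and for Chga Cryba2 (0.89), Rhcg (0.78) and Pcyt1b (0.77). Among the members, Chgb and Scg2 had an r of 0.91, Calca and Chgb 0.89, Calca and Scg2 0.88, Pth and Chga 0.71, and Calca and Pth -0.29. The pairs share libraries and their free RNA and include the Calca-high and Pth-high groups, which the gates set by Calca and Pth. These values are descriptions. Calcb, Gcm2 and Casr had fewer than 30 UMIs in these cells and were not compared.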

How the data were processed

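The deposited matrices held UMI counts for each gene and droplet, not normalized, which the authors made with CellRanger on mm10 from 10x Genomics 3′ libraries. The submitters' notes also name Seurat 3.1.4 and 3.6.3. UMIs mark transcript ends, so levels (CPM) were not scaled by length. Every matrix was matched to a sample. The list of cell barcodes named no library. Each listed barcode was therefore given to the library whose matrix held most UMIs for it, or to several libraries if it was listed more than once. All values per library rest on this assignment. Members and gene lists were chosen with earlier results of these data known. Named were all 8 members, at most 5 genes per list and comparison with the largest change among those called, and the 3 genes most like each member, of which a few are not reported here. Bounds count 3 UMIs for 0, per group.

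Cells were the listed barcodes with 200 to 10000 UMIs, at most 10% mitochondrial and 5% hemoglobin UMIs, without the 6% highest Scrublet scores of each library, in place of Scrublet's own calls, which marked 635, 34, 3 and 3 cells. They were clustered with scanpy 1.11.5 (3000 variable genes without members or list genes, 30 principal components, Leiden) and named from marker lists. The main tests used edgeR 4.0.16 (TMM, quasi-likelihood, filterByExpr, library as block, residual df 3) on UMIs summed per library and group, with Benjamini-Hochberg adjustment over all genes tested and a threshold of 0.05. Calca and Pth, which the gates used, were left out of the tests. The block joins groups of 1 library. Comparisons share Calca-high, Pth-high or TFC-like sums and are not independent of each other. P-values measure the spread between libraries that also differ in age. Simulated counts with 200 changed genes gave 83%, 68% and 100% of 4-fold changes and 19%, 7% and 57% of 2-fold changes back for Calca-high against TFC-like, Pth-high against TFC-like and Calca-high against Pth-high cells, with 5, 1 and 5 false calls. Alternatives used DESeq2 1.42.0 and Seurat 5.3.0. Intervals are exact at 95% and cover counting error only. Promoters were from RefSeq on GRCm38.p6.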

Additional observations from a re-analysis of the deposited data

How the results depend on the processing

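No member called in a main test lost its call or changed direction under the alternatives that were run. Of the results of members tested in filtered cells all 88 stayed on the same side of the threshold. Members tested only at full depth stayed in 25 cases and lost their call in 6, which were Scg2 against TFC-like cells with each library left out, and Scg2 and, between the hormone groups, Casr (edgeR adjusted p = 0.64) when all genes with 1 UMI were tested in filtered cells. Of the named list genes tested in filtered cells 300 results stayed, 8 passed in addition and 12 lost their call, and of those tested only at full depth 216 stayed, 34 lost their call and 1 turned, Hoxa3 at -0.53 with every gene of at least 1 UMI tested. Counts of genes called moved more. Calca-high against TFC-like cells gave 1259 genes, and 2315 with every gene of at least 1 UMI tested, 5127 without the upper UMI limit, 349 in cells thinned to 1000 UMIs and 943 to 1400 with 1 library left out. Pth-high against TFC-like cells gave 548, and 1292, 3311, 181 and 318 to 480, and 324 by DESeq2. Calca-high against Pth-high cells gave 146, and 408, 1929, 75 and 77 to 164, and 91 by DESeq2. Among the fits with 1 library left out, the lowest counts of the last 2 comparisons came without that labelled day 5 (318 and 77). DESeq2, which changes scaling and test together, moved the median of all genes tested from -0.09 to -0.27, from -0.18 to -0.47 and from 0.05 to 0.23 on the log2 scale, with no member or list direction turned. Other gates, kept doublets, no library block (1410, 624 and 130 genes) and Seurat integration, which was not run for Calca-high against Pth-high cells, changed no call of a member tested in filtered cells. Gcm2 and Casr gave no value under most of these. The library block of the main tests pairs the cell groups of a library. Between ages, no paired analysis was possible because each age has 1 library. Without the upper limit Calca in Calca-high cells went from 247706 to 191601 CPM and Chga there from 540 to 384 CPM, while Pth in Pth-high cells went from 267224 to 255535 CPM and Chga there from 43911 to 47082 CPM. In droplets of 2 to 50 UMIs Calca was at 4223, Pth at 2386, Chga at 658 and Scg2 at 101 CPM, against 3173, 2165, 785 and 87.8 CPM in those of 10 to 100 UMIs. In the latter without barcodes listed as cells in any library, an alternative chosen after seeing the data, Calca was at 3070, Chga at 805 and Scg2 at 82.2 CPM. Cells in both gates numbered 2 in the main setting and 0 with gates of 30 or after all filters. Depth limits Gcm2, Casr and Calcb, which had 5 to 24 UMIs in all filtered cells of the compared classes.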
